A study of Caenorhabditis elegans with 4 samples.

Results

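The regions described here are the peaks of RNA polymerase II (Pol II) on chromosome IV of Caenorhabditis elegans. They number 569 in its centre and 343 in its arms, together 15.3% of the 5942 peaks of the whole list. They were selected by chromosome alone, as every row of the deposited list with IV as its chromosome. The list comes from ChIP-seq, in which DNA crosslinked to a protein is precipitated with an antibody and sequenced. There were 4 libraries from whole third-stage (L3) hermaphrodite larvae: 2 of Pol II chromatin and 2 of input DNA, from 2 numbered extractions. All 4 came from strain OP26, grown at 20 degrees Celsius and fixed in 2% formaldehyde. OP26 has the mutation unc-119(ed3) on chromosome III and the bombarded transgene wgIs26, which pairs a rescuing unc-119(+) with the tagged Hox gene mab-5::TY1::EGFP::3xFLAG. No strain without the transgene is part of the comparison, so every peak is from worms that carry it. The sample descriptions name the antibody 8WG16 against Pol II, whereas the shared protocol text speaks of anti-GFP serum and embryos; the sample descriptions were followed.

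Pol II transcribes all protein-coding genes and many small RNA genes, and its largest subunit carries the C-terminal repeats that 8WG16 binds. In chromatin of whole animals, its peaks mark sequence occupied in any of many tissues at once. Much Pol II in few cells cannot be told apart from little Pol II in many. The autosomes of this worm have a centre dense in genes that are widely used, between arms that are richer in repeats and in recently duplicated genes. Many of its genes stand in operons, in which neighbouring genes are transcribed together. Chromosome IV is further known for most of the genes of piRNAs, the 21U-RNAs that guard the germ line against transposons. Each of these tiny genes is transcribed by Pol II on its own in germ cells, and they fill a pair of broad regions of this chromosome. At the rounded scale used in the field, these run from 4500 to 7000 kb (the inner region) and from 13500 kb to near the end of the chromosome (the right end).

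The list pools the libraries and holds no value for a single one, so no value below has an error between replicates, and no difference between regions or chromosomes was tested. The depth of the libraries is unknown. Intervals given after shares are exact 95% binomial intervals. They cover counting error only and treat peaks as independent, which neighbours on a chromosome are not. In the order of calling, the list starts at rank 96: with that first rank, 686 neighbouring pairs of rows had equal recovered p-values to within a relative 1e-11, and with each of the other 299 first ranks tried, none had. The 95 regions called before it were not analysed here, and the highest listed region of chromosome IV had rank 97. Positions are those of build WormBase WS180. A gene annotation of that build was not used here, so peaks are given by position and not by gene.

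Listed Pol II peaks covered 1464 kb of chromosome IV, or 8.38% of the 17.47 Mb up to its last peak. Chromosome IV held 15.3% of all listed peaks (14.4% to 16.3%). Chromosome II held 12.0%, III 15.2%, V 10.7% and X 10.2%. The remaining peaks, a larger share than that of any of these chromosomes, lay outside them. They count in every share of the whole list given here, and why they are so many was not tested. In the 34 full windows of 500 kb counted from base 1, there were 26.4 ± 12.2 peaks per window (mean and SD over windows), with a median of 25 and a range of 3 to 52. Covered bases came to 42.6 ± 16.7 kb per window, from 10.2 to 78.2 kb. The window with the most peaks ran from 7500 to 8000 kb and held 52. It was followed by those from 11000 to 11500 kb with 47 peaks and from 8000 to 8500 kb with 46. The emptiest full windows were next to each other on the right arm, with 3 peaks between 16000 and 16500 kb, 5 between 15500 and 16000 kb and 8 between 15000 and 15500 kb.

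**Figure D1:**
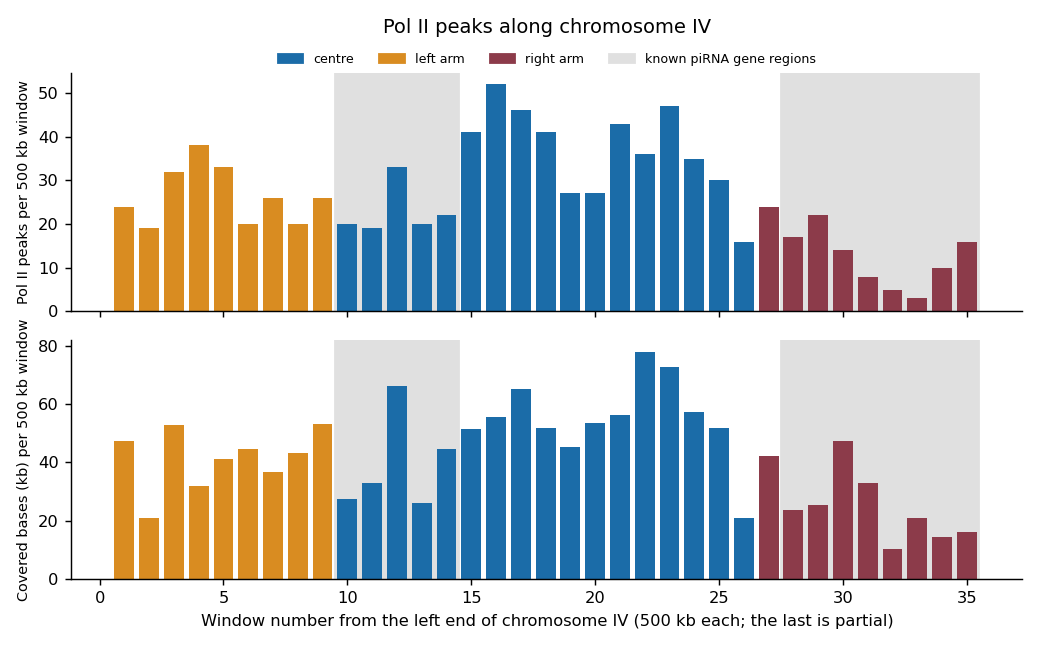
Bars give the Pol II peaks (top) and the kb covered by them (bottom) in each window of 500 kb of chromosome IV, numbered from the left end, coloured by centre, left arm and right arm, with the known piRNA gene regions shaded. The shaded inner windows held 19 to 33 peaks, the shaded full windows of the right end 3 to 22, and the highest bar, outside both, 52.

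The centre of chromosome IV, taken as the middle 50% of the length that ends with its last peak, held 569 peaks. That is 62.4% (59.2% to 65.5%) of all on the chromosome. Its 17 full windows, assigned by their midpoints, had 32.6 ± 11.2 peaks each, from 16 to 52, and 50.5 ± 16.3 kb covered. The 9 windows of the left arm had 26.4 ± 6.64 peaks, from 19 to 38, and 41.4 ± 10.3 kb covered. The 8 full windows of the right arm had 12.9 ± 7.72 peaks, from 3 to 24, and 27.2 ± 12.99 kb covered. The means of the centre thus stood 1.23-fold above those of the left arm and 2.54-fold above those of the right arm in peak number, and 1.22-fold and 1.86-fold in covered bases. The ranges overlapped: 6 of the 17 central windows held more peaks than any window of the left arm, and 12 held more than any of the right arm.

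The arms were unequal. The left arm held 230 peaks and the right arm 113 on the same length, a ratio of 2.04, and covered bases differed 1.66-fold (8.12% of the left arm and 4.90% of the right arm). In 6 of the 8 full windows of the right arm there were fewer peaks than in the lowest window of the left arm.

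Beyond 13500 kb, where the larger piRNA gene region lies, 95 peaks remained on 3.97 Mb. This is 10.4% of the peaks of the chromosome (8.51% to 12.6%) on 22.7% of its length. The 7 full windows there held 11.3 ± 6.78 peaks, against 30.3 ± 10.02 in the 27 windows before it, a ratio of 0.37. For covered bases the ratio was 0.53, with 25.01 ± 12.4 kb against 47.1 ± 14.7 kb. Of the 7 windows, 5 held fewer peaks than any window before the right end. Peaks did not thin out evenly to the end of the chromosome: from 14000 kb on, successive windows held 22, 14, 8, 5, 3 and 10, and the last, partial window from 17000 kb held 16.

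Broad peaks, here those of 5 kb or more, were reduced less than the others in the right end. They numbered 10, or 2.52 per Mb, in the right end, against 3.93 per Mb before it (ratio 0.64). Narrower peaks numbered 21.4 per Mb against 56.6 per Mb (ratio 0.38). The broad share of peaks was 10.5% (5.16% to 18.5%) in the right end and 6.49% (4.90% to 8.40%) in the rest of the chromosome, and these intervals overlap. Broad peaks made up 45.3% of the covered bases in the right end, against 33.8% of those before it. The widths of the 95 unlisted regions are unknown, so no count or share of broad peaks here or below includes them.

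The inner piRNA gene region, from 4500 to 7000 kb, lies in the centre by position but had a mean peak number slightly below that of the left arm. The means were 22.8 ± 5.81 and 26.4 ± 6.64 peaks per window, a difference smaller than the spread between windows. Covered bases were close, at 39.4 and 41.4 kb per window. The 5 windows of the inner region held 20, 19, 33, 20 and 22 peaks from left to right. The other 12 full windows of the centre held 36.8 ± 10.3 peaks, from 16 to 52, so the mean of the inner region was 0.62 of theirs. In covered bases, the inner region had 39.4 ± 16.7 kb per window against 55.1 ± 14.3 kb (ratio 0.72). Of those 12 windows, 8 held more than 33 peaks, the highest count of the inner region. The remaining 4, with 16, 27, 27 and 30, lay within its range or below it.

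The region held 114 peaks, 12.5% of the chromosome (10.4% to 14.8%) on 14.3% of its length. It held 8 broad peaks, or 3.2 per Mb against 4.17 per Mb in the rest of the centre, and 42.4 narrower peaks per Mb against 68.8. As in the right end, the ratio was nearer to 1 for broad peaks (0.77) than for the others (0.62). The broad share of peaks was 7.02% (3.08% to 13.4%) in the inner region and 5.71% (3.77% to 8.26%) in the rest of the centre. These intervals overlap widely. The widest listed peak of the chromosome lies here.

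Between these regions, a block of 11 windows from 7000 to 12500 kb had the most peaks, with 38.6 ± 8.36 per window and none below 27. Its limits were chosen after the values were seen. The window after it, from 12500 to 13000 kb, held 16 peaks, and the one after that 24. Both lie before the right end as defined here. The inner region and the right end combined had 16.1 peaks per 500 kb and 6.0% of their bases covered, and the rest of the chromosome had 31.95 peaks per 500 kb and 9.78% covered. The combined value joins 3.97 Mb of the right end, at 11.96 peaks per 500 kb, with 2.5 Mb of the inner region, at 22.8. The right end lies wholly in the right arm, and the part of arm position in these values was not tested.

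Peaks in both piRNA gene regions also had larger q-values. The q-value is the p-value of a peak adjusted for the number of regions tested, and a larger one is weaker evidence of enrichment over input, not a measured level. Above 1e-5 were 52 of the 95 peaks of the right end (54.7%, 44.2% to 64.98%) and 63 of the 114 of the inner region (55.3%, 45.7% to 64.6%). Outside both it was 282 of 703 peaks (40.1%, 36.5% to 43.8%). Median −log10 q was 4.46 in the right end, 4.37 in the inner region and 6.54 elsewhere. Widths did not differ alike, with medians of 771 bp, 772.5 bp and 763 bp. Among peaks of 1000 to 1999 bp, median −log10 q was 6.67 in the right end (17 peaks), 4.21 in the inner region (23 peaks) and 13.4 elsewhere (124 peaks). At 2000 to 4999 bp it was 12.9 (17 peaks), 11.9 (18 peaks) and 24.0 (119 peaks). The order changed for broad peaks, with 27.1 over 10 peaks of the right end, 92.2 over 8 of the inner region and 47.0 over 45 elsewhere. Local read depth and input background, which also set q, were not given, and their part in these values was not tested.

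Chromosome IV was then set beside II, III, V and X; chromosome I was not used in these comparisons. On IV the left arm held more peaks than the right arm, whereas on II, III, V and X it held fewer. The ratio of left to right was 2.04 on IV, against 0.26 on II, 0.85 on III, 0.96 on V and 0.58 on X. In covered bases it was 1.66 on IV, against 0.44 on II, 0.82 on III, 0.81 on V and 0.67 on X. Of these 5, IV had the densest left arm, at 26.3 peaks per 500 kb, against 22.7 on III, 11.6 on X, 6.23 on V and 5.63 on II. Its right arm, at 12.9 peaks per 500 kb, lay above that of V (6.52) and below those of X (20.2), II (21.6) and III (26.6).

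The same relative stretches were then counted on each chromosome. The last 22.7% of the length held 10.4% of the peaks on IV (8.51% to 12.6%), against 19.5% on II (16.6% to 22.6%), 17.4% on III (15.003% to 20.1%), 10.1% on V (7.87% to 12.7%) and 27.3% on X (23.8% to 31.01%). A right end this poor in peaks was therefore also seen on V. On V, however, the mirrored left end was as poor, with 8.53% of the peaks, while that of IV held 23.2%. The stretch in the relative place of the inner region held 12.5% of the peaks on IV (10.4% to 14.8%), against 15.7% on II (13.1% to 18.6%), 17.2% on III (14.8% to 19.8%), 20.2% on V (17.2% to 23.6%) and 18.3% on X (15.3% to 21.7%). IV was the lowest of the 5, with an interval that overlapped that of II and, barely, that of III.

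**Figure D2:**
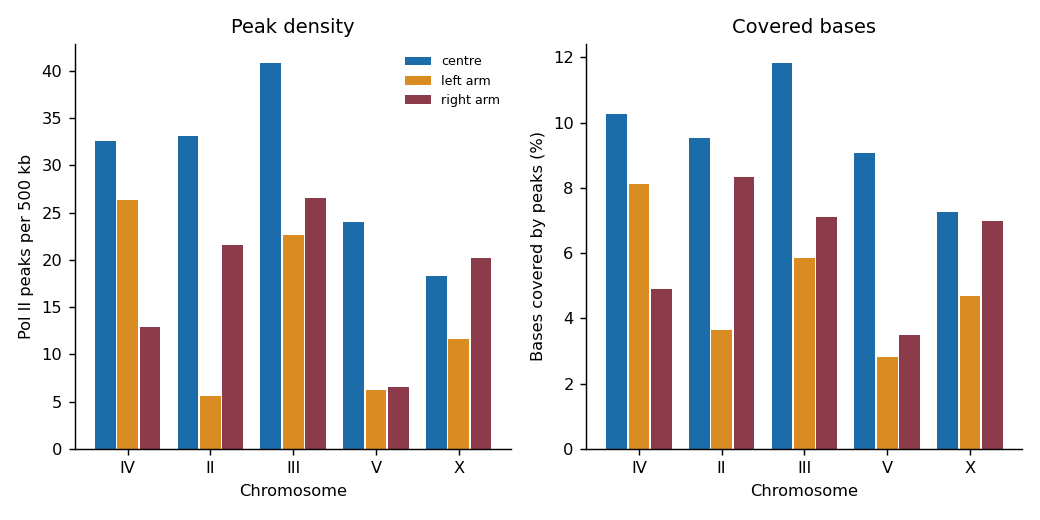
Bars give Pol II peaks per 500 kb (left) and the percentage of bases covered by peaks (right) in the centre, left arm and right arm of chromosomes IV, II, III, V and X, each chromosome divided by the position of its last peak. On IV the left arm (26.3 peaks per 500 kb) stands above the right arm (12.9), and on II, III, V and X it stands below.

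Among IV, II, III, V and X, IV stood between III and II in peak density. Full windows of 500 kb held 26.4 ± 12.2 peaks on IV (34 windows), against 23.2 ± 15.1 on II (30 windows), 32.7 ± 11.9 on III (27 windows), 15.2 ± 11.6 on V (41 windows) and 17.1 ± 6.94 on X (35 windows). These means differ by less than the spread between windows for IV against II and III. The fold of centre over arms in peak number was 1.66 on IV and 1.66 on III, against 2.43 on II, 3.76 on V and 1.15 on X. No full window of IV was without a peak. The lowest windows of II, III, V and X held 1, 10, 0 and 1 peaks.

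The 10 listed peaks of IV with the smallest q-values were spread over the centre (5), the left arm (3) and the right arm (2). The 95 unlisted regions of higher rank, whose chromosomes are unknown, are not among them. The smallest listed q-value of IV, 2.00e-304, belonged to a peak of 7278 bp from 13388415 to 13395692, at the inner edge of the right arm. In the centre, the peak from 8429896 to 8433697 reached 1.06e-281. The strongest of the left arm, from 4262832 to 4266094, reached 3.92e-279, and a second one there, 10012 bp wide from 3644547 to 3654558, reached 3.75e-271. The right end also held one of the 10, from 13700384 to 13704472, with a q-value of 4.04e-246. The other 5 had q-values from 3.59e-262 to 1.10e-228 and widths from 2562 to 16234 bp. A smaller q need not mean more Pol II, because q also falls with the width of a peak and the reads in it.

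Of the 5 widest listed peaks, 2 lay in the right end. The widest, of 17330 bp from 5650577 to 5667906, had a q-value of 1.77e-228 and was also the peak with the smallest q in the inner region. Next came a peak of 16234 bp from 10491883 to 10508116, which was also among the 10 with the smallest q. The peaks of the right end spanned 14987 bp from 14609674 to 14624660 (q = 2.34e-165) and 14858 bp from 16482408 to 16497265 (q = 1.00e-206). The last of the 5, with 14090 bp, ran from 10812655 to 10826744 (q = 3.84e-181).

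Towards the ends of the chromosome, the outermost listed peaks had large to middling q-values. The first listed peak began 91.2 kb from base 1 and was 7 bp wide, from 91208 to 91214 (q = 1.16e-04). It was followed by peaks of 467 bp from 94082 (q = 9.30e-04) and 831 bp from 97672 (q = 1.60e-03). The last 3 peaks began at 17428937 (1701 bp, q = 3.26e-14), 17446403 (67 bp, q = 1.48e-04) and 17469509 (1232 bp, q = 2.30e-08).

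Peaks of IV had a median width of 765 bp, with quartiles of 378 and 1880 bp, and ranged from 1 to 17330 bp. On II the median was 763 bp, on III 640 bp, on V 959 bp and on X 995 bp, so IV and II were nearly equal. The 63 broad peaks made up 6.91% of the peaks of IV (5.35% to 8.75%), against 7.99% on II (6.11% to 10.2%), 6.44% on III (4.92% to 8.24%), 10.9% on V (8.58% to 13.6%) and 9.09% on X (6.92% to 11.7%). The share of IV changed with the peaks counted: it was 11.7% among peaks with a q-value of 1e-5 or less, 26.1% at 1e-20 or less, and 11.9% once peaks within 1 kb were merged. Per Mb there were 3.61 on IV, against 3.73 on II, 4.21 on III, 3.31 on V and 3.11 on X. Broad peaks per Mb therefore ranged less between these chromosomes than the narrower peaks, of which there were 48.6 per Mb on IV, against 27.04 on V to 61.2 on III.

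Among listed peaks, broad ones held 35.3% of the covered bases of IV, the lowest share among these chromosomes. The 95 unlisted regions, of unknown width and chromosome, could change this order. It was 39.7% on II, 37.4% on III, 46.1% on V and 40.6% on X. The widest 10% of all peaks held 44.0% on IV, within the range from 42.7% on X to 48.1% on III. Broad peaks were spread along chromosome IV: 4 of the 34 full windows had none, and 13 had 3 or 4. Their density was 3.89 per Mb in the centre, 4.12 per Mb in the left arm and 2.52 per Mb in the right arm. Peaks of 50 bp or less numbered 51 (5.59%, 4.19% to 7.29%) and covered 0.88 kb in all. Their share was 4.22% in the centre (2.72% to 6.21%), 7.83% in the left arm (4.70% to 12.1%) and 7.96% in the right arm (3.71% to 14.6%). On II, III, V and X it was 4.49%, 5.22%, 5.53% and 4.96%.

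**Figure D3:**
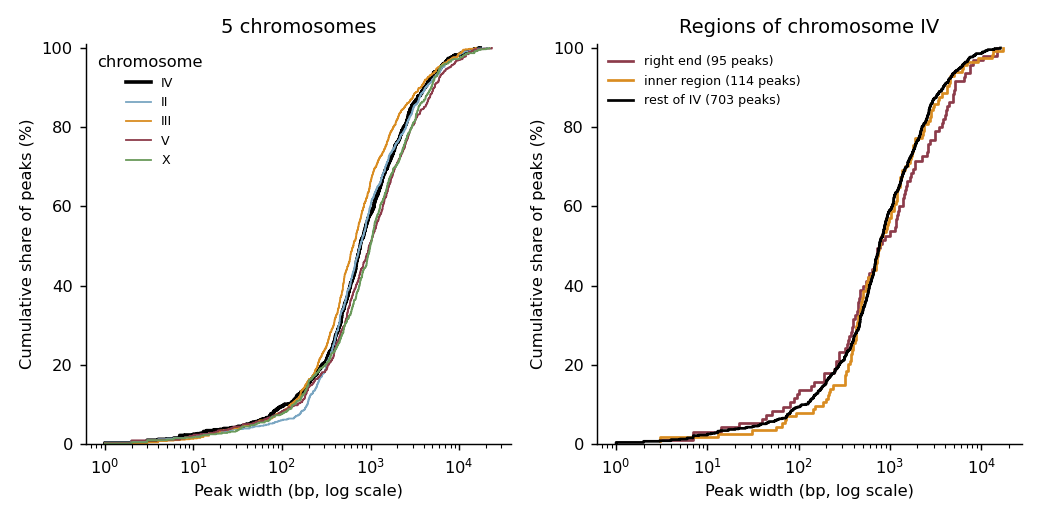
Cumulative shares of peaks (%) by width (bp, log scale) on chromosomes IV, II, III, V and X (left) and in the right end, the inner region and the rest of IV (right). At its median, the curve of IV lies on that of II, at 765 and 763 bp, and those of its regions meet at 763 to 772.5 bp, with the right end wider in the upper part.

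Wider peaks of IV had smaller q-values. Over all its peaks, which share the same libraries and differ in the reads they can hold, width and −log10 q had a rank correlation (Spearman) of 0.67. It was 0.68 in the centre, 0.69 in the left arm and 0.66 in the right arm. Below 500 bp the medians of −log10 q were close together and had no order, with 3.49 up to 50 bp, 3.32 from 51 to under 200 bp and 3.56 at 200 to 499 bp. The median was 5.09 at 500 to 999 bp and reached 10.9 at 1000 to 1999 bp, 38.1 at 5000 to 9999 bp and 167 in the 16 peaks of 10 kb or more. A q-value of 1e-20 or less was held by 184 peaks of IV (20.2%, 17.6% to 22.9%), against 21.3% on II, 19.5% on III, 24.96% on V and 17.4% on X. None of the 311 peaks under 500 bp was among them, and 48 of the 63 broad peaks were.

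**Figure D4:**
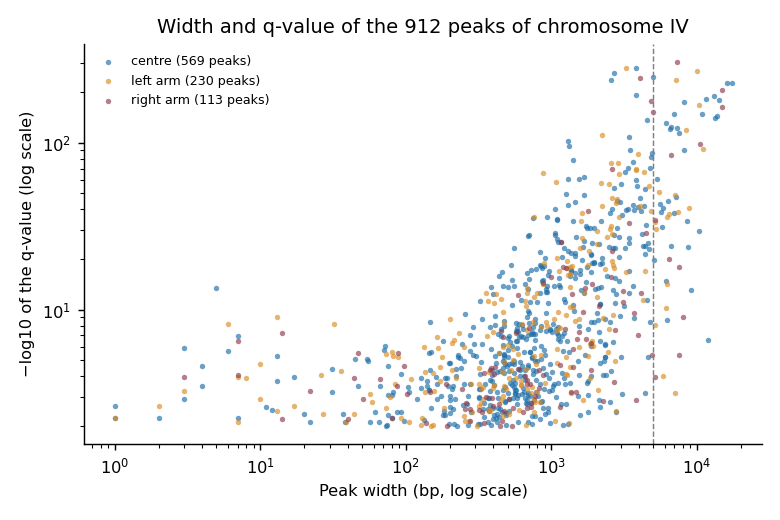
Each point is a peak of chromosome IV, by width (bp, log scale) and −log10 of its q-value (log scale), coloured by centre, left arm and right arm, and the dashed line marks 5 kb. Points rise to the right in all of these colours, and no point under 500 bp reaches 20 on the vertical axis.

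At equal width, peaks of the right arm of IV had larger q-values than those of the centre in each of 5 width classes. At 500 to 999 bp, median −log10 q was 5.60 in the centre (157 peaks), 5.13 in the left arm (42 peaks) and 3.56 in the right arm (21 peaks). At 2000 to 4999 bp, it was 23.1 in the centre (95 peaks), 30.99 in the left arm (40 peaks) and 12.6 in the right arm (19 peaks). The left arm lay above the centre in 2 of the 5 classes. Among IV, II, III, V and X, IV had the lowest median at 200 to 499 bp, with 3.56 against 3.60 on X to 4.59 on III. At 1000 to 1999 bp it was 10.9 on IV, against 10.5 on II, 11.9 on III, 10.6 on V and 7.18 on X.

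Pol II peaks on IV came in close groups. Another peak lay within 1 kb of 303 peaks, or 33.2% (30.2% to 36.4%). If the same peaks were placed at random and evenly on IV, with gaps of at least the 200 bp of the closest listed pair, the share calculated from a closed formula is 8.79%. With the peak density of each 500 kb window kept, it is 10.7%. When only peaks with small q-values were kept, neighbours were counted among the kept peaks alone, which lowers the share whatever their strength. The share was 24.3% (20.6% to 28.2%) over the 515 peaks with a q-value of 1e-5 or less, against 4.96% for even placement of as many peaks. It was 10.3% (6.33% to 15.7%) over the 184 peaks at 1e-20 or less, against 1.75%. Within 5 kb, 68.1% of peaks had another, against 42.4% for even placement and 48.0% with window densities kept.

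The excess was at the shortest distances and at the longest. Of the 911 gaps between neighbouring peaks, 82 were of 200 to 399 bp, against 10.4 calculated for even placement. The ratio of listed to calculated gaps was 7.86 there, 4.07 at 400 to 599 bp, 2.45 at 600 to 799 bp and 2.28 at 800 to 999 bp. It was 1.58 at 1000 to 1999 bp, 0.54 at 10 kb to under 20 kb and 1.07 at 50 kb to under 100 kb. Gaps of 100 kb or more numbered 22, against 2.86 calculated. Even placement takes a single density for all of IV, and 12 of these 22 gaps lay in the sparser right end. The median gap was 6299 bp, against 12236 bp calculated. Pieces of a single occupied stretch that were listed separately would add to the short gaps, and their part was not tested.

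**Figure D5:**
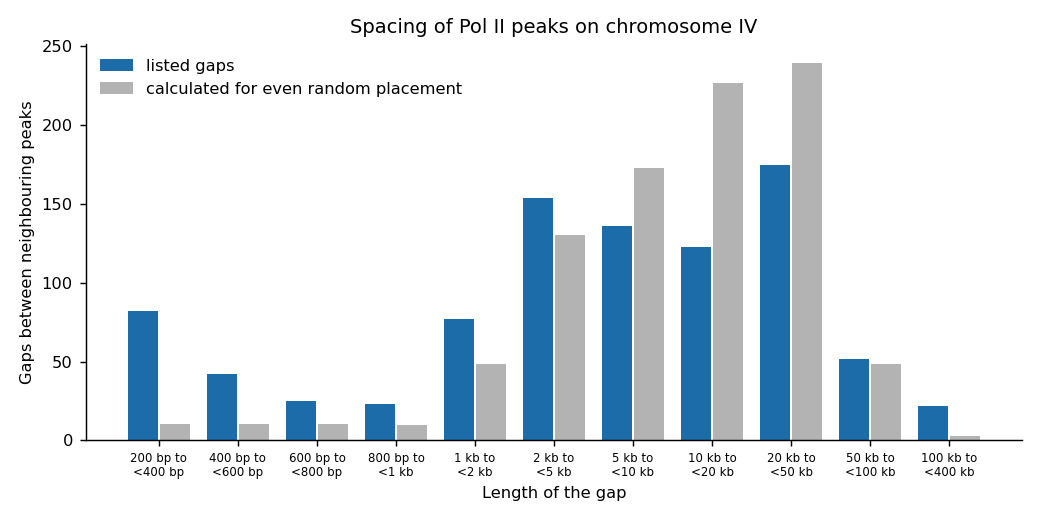
Bars count the 911 gaps between neighbouring peaks of chromosome IV by length, as listed and as calculated for even random placement of the same peaks with gaps of at least 200 bp. Listed gaps exceed calculated ones under 5 kb and from 50 kb on, by 82 to 10.4 in the shortest class and by 22 to 2.86 in the longest.

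Close neighbours were seen in all parts of IV. Another peak within 1 kb was found for 34.3% of peaks in the centre (30.4% to 38.3%), 37.8% in the left arm (31.5% to 44.4%) and 18.6% in the right arm (11.9% to 26.99%). The shares calculated from the window densities were 12.4%, 9.38% and 5.63%. The left arm thus had the highest ratio of listed to calculated, 4.03, with 2.76 in the centre and 3.30 in the right arm. In the right end the share was 15.8% (9.12% to 24.7%) against 5.003% calculated, and in the inner region 28.1% (20.1% to 37.3%) against 8.19%. A close neighbour was found for 10 of the 51 peaks of 50 bp or less (19.6%, 9.82% to 33.1%) and for 293 of the 861 wider peaks (34.0%, 30.9% to 37.3%), and these intervals overlap.

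Set beside the shares calculated from their own window densities, the shares within 1 kb were 3.09-fold higher on IV, 2.71-fold on II, 2.66-fold on III, 2.61-fold on V and 3.56-fold on X. The listed shares were 33.2% on IV, 29.9% on II, 33.3% on III, 21.01% on V and 23.6% on X. Such a ratio has less room where the calculated share is high, and that share was 10.7% on IV, 11.0% on II, 12.5% on III, 8.07% on V and 6.65% on X.

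Joined by gaps under 1 kb, the 303 peaks formed 131 groups, of which 102 were pairs, 20 held 3 peaks, 6 held 4 and 3 held 5. The 3 groups of 5 all lay in the block between 7000 and 12500 kb. That from 8306570 to 8317350 had 85.4% of its 10781 bp covered, with peaks of 468 to 6616 bp and q-values from 4.20e-125 to 9.40e-04. A second one, from 11435945 to 11447505, had 87.9% of its 11561 bp covered. The third, from 11173817 to 11179817, was looser, with 57.9% of 6001 bp covered and peaks of 75 to 1687 bp.

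The 4 longest stretches without a listed peak lay in the right end. The longest of all, 309 kb, ran from 16173570 to 16482407. It was followed by 269 kb between 15897623 and 16166703, and by 219 kb between 15050270 and 15269569. The fifth, of 182.3 kb from 4880898 to 5063205, lay in the inner region and was nearly as long as the fourth, of 182.6 kb. Of the 22 gaps of 100 kb or more, 12 lay in the right end and 10 outside it. Gaps of 50 kb or more numbered 24 there and added up to 2865 kb of its 3971 kb. The longest gap ended directly at the peak of 14858 bp described above. The longest gap on IV, 309 kb, was shorter than those of II (657 kb), V (795 kb) and X (447 kb) and longer than that of III (196 kb).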

How the data were processed

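Pol II chromatin (2 libraries) and input DNA (2 libraries) of OP26 larvae were compared by the authors in a single combined peak list. Peaks were called with PeakSeq on build WormBase WS180, per the file headers and source field. For the PeakSeq version, the aligner, read filters and how libraries were pooled, nothing is stated ("not given in the sources used here"). Each row holds 1-based limits of a peak and its q-value as deposited, written alike in its score and attribute fields in all 5942 rows, with 0.0099 as the largest. The rows of chromosome IV number 912. Depth per library is unknown.

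Widths, midpoints, −log10 q and gaps were computed from the list. Peaks were placed by midpoint. Windows of 500 kb started at base 1, and full windows ended before the last peak of their chromosome, because chromosome lengths of the build were not used here. The centre was the middle 50% of that length, and the right end began at 13.5 Mb. The share of peaks with a neighbour under even random placement came from a closed formula with gaps of at least 200 bp. This formula was checked on simulated placements. The shares with window densities kept came from its limit form, applied to each window, which was not checked in this way. Windows and groups of neighbours were counted directly from the list. No test was run, since the list has no replicates. Named peaks followed a fixed rule: the 10 smallest q-values, the 5 widest, the smallest q of each region, the 3 longest gaps, groups and fullest and emptiest windows, and the 3 peaks nearest each end. Chromosome I was not used in the comparisons between chromosomes. The members, regions and comparisons were chosen with earlier results of these data known. Software was Python 3.11.15 with scipy 1.17.1, numpy 2.4.6, pandas 2.3.3 and, for the plots, matplotlib 3.10.9.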

Additional observations from a re-analysis of the deposited data

How the results depend on the processing

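Over 8 values and 44 recomputed ones, 27 stayed within the binomial interval of the share or 1 SD over windows, and 17 moved further. With only peaks of q of 1e-20 or less, the share in the centre was 66.3%, that in the right end 7.61%, that of broad peaks 26.1%, that with another peak within 1 kb 10.3% and that of the list on IV 14.2%. Covered bases per window were then 27.2 kb in the centre and 17.3 kb in the arms. Keeping fewer peaks can only lower covered bases, and wider peaks had smaller q-values, so the broad share rises with such a limit. With q of 1e-5 or less, the share in the right end was 8.35%, in the inner region 9.90%, of broad peaks 11.7%, with another peak within 1 kb 24.3% and on IV 14.1%. Both regions were thus poorer still at this limit. At 1e-20 or less, the inner region held 10.9%, within the interval of its main value. Merging peaks within 1 kb made 11.9% of regions broad and put 16.4% of them on IV. By construction, the narrower centre held fewer peaks (47.4%), a limit of 4 kb called more peaks broad (10.3%), and a distance of 5 kb found more neighbours (68.1%). If all 95 unlisted regions of higher rank lay in the arms of IV, the centre would hold 56.5% of its peaks, and if all lay in the right end, the right end would hold 18.9%. If all lay in the inner region, it would hold 20.8% on 14.3% of the length. The low share of the inner region thus depends on where the unlisted regions lie. No paired analysis was possible because no row belongs to a single library, which also kept any replicate from being left out. The planned comparison with genes was not run, since gene models on WS180 were not used here.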

Other observations

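The 8 peaks of the sparsest stretch, between 15500 and 16500 kb, were looked at after their number was seen. Between 15500 and 16000 kb, the 5 peaks were 820 to 3691 bp wide and had q-values from 1.48e-03 to 2.79e-10, 3 of them above 1e-5. Between 16000 and 16500 kb, a peak of 4981 bp from 16166704 to 16171684 had a q-value of 5.89e-153, its neighbour of 1203 bp from 16172367 to 16173569 had 1.18e-18, and the peak of 14858 bp after the longest gap had 1.00e-206. The window with the fewest peaks on the chromosome therefore held only peaks past 1e-5, and 2 of its 3 were past 1e-20.

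Of the 500 listed peaks with the highest ranks of the whole series, 64 were on chromosome IV, or 12.8%, against 15.3% of all listed peaks. This share would move with the 95 unlisted regions, whose chromosomes are unknown.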
